A study of Mus musculus with 10 samples.

Results

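The genes described here encode the proteins of the cytosolic ribosome. They were taken by symbol, as every gene named Rpl or Rps with a number and an optional a, x or y, together with Rplp0, Rplp1, Rplp2 and Rpsa, and without names that mark pseudogenes. The rule found 76 genes among 21877 gene symbols, 46 of the large subunit and 30 of the small subunit. All 76 passed the filter on low counts, beside 15385 genes tested in all. The rule used names only and no measured value.

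Each cytosolic ribosome carries a single copy of nearly every one of these proteins, so cells have to make them in matched amounts. Most of their mRNAs begin with a run of C and T bases, the terminal oligopyrimidine tract, through which the mTOR pathway and the RNA-binding protein Larp1 adjust translation. Control that acts on translation is not seen in mRNA counts. Growing and dividing cells, such as activated lymphocytes, are known for high levels of ribosomal protein mRNA.

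RNA was sequenced from the peritoneum of male C57BL/6 mice. Mr1+/+ mice have the antigen-presenting molecule MR1, which mucosal-associated invariant T cells recognise, and Mr1-/- mice lack it. Over 6 weeks the animals of both genotypes had PBS or 4.25% peritoneal dialysis (PD) fluid, a glucose-rich dialysis solution, injected into the peritoneal cavity. The labels give 3 libraries each for Mr1+/+ PBS and Mr1+/+ PD, and 2 each for Mr1-/- PBS and Mr1-/- PD, and tie no library to an animal. The p-values below thus rest on how far these samples vary, part of which may be technical.

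Libraries held 14145635 to 16335799 counts. Replicates 1 and 2 of Mr1+/+ PBS were near-identical (chi-square per gene of 2.23), as were replicates 1 and 2 of Mr1-/- PD (1.74), against 18.6 to 118 for the other 6 pairs within groups. Each near-identical pair was summed and counted as 1 sample, which left n = 2, 3, 2 and 1 in the 4 groups in the order above. Mr1+/+ PBS replicate 3 stood apart, with summed pancreatic acinar markers at 33174 CPM (counts scaled to a common library size) against 191 to 6737 in the other samples, and intestinal epithelial markers at 3339 against 21.2 to 33.7. The 16 mesothelial markers, which define the peritoneal lining, summed to 145 to 1183 CPM and the 14 B cell markers to 1751 to 4569. Mr1 itself had 324 to 524 counts in the libraries labelled Mr1+/+ and 29 to 39 in those labelled Mr1-/-. Its log2 CPM was lower by a difference of -3.55 in Mr1-/- samples, with an exact two-sided permutation p of 0.0179, the smallest that the 56 ways of assigning the labels allow.

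The 76 ribosomal protein genes took 2.49% to 4.16% of the counts of a library. Their summed level was 40183 CPM in Mr1+/+ PBS replicates 1 and 2 and 31049 CPM in Mr1+/+ PBS replicate 3. The 3 Mr1+/+ PD samples had 32602, 26731.5 and 35318 CPM. Mr1-/- PBS samples had 30469 and 32872 CPM, and the Mr1-/- PD sample had 32282 CPM. The extremes both came from Mr1+/+ mice, and the groups overlapped. The group means were 35616 ± 6459 CPM (SD, n = 2) for Mr1+/+ PBS, 31550 ± 4389 (SD, n = 3) for Mr1+/+ PD and 31670 ± 1699 (SD, n = 2) for Mr1-/- PBS. The Mr1+/+ PBS mean was 1.13 times the Mr1+/+ PD mean, less than the 1.29-fold gap between the 2 Mr1+/+ PBS samples and the 1.32-fold gap between Mr1+/+ PD replicates 3 and 2. In bulk tissue, fewer cells of a type and less RNA per cell cannot be told apart.

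**Figure D1:**
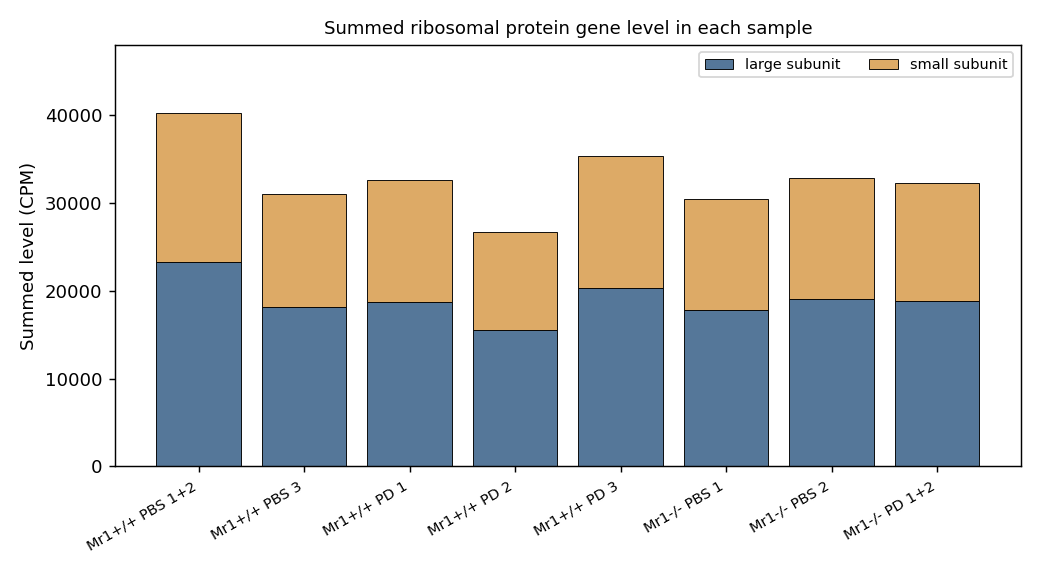
Summed level in CPM (y axis) of the large subunit genes (blue) and small subunit genes (orange) in each of the 8 samples (x axis); each bar is 1 sample and has no error bar. The tallest bar is Mr1+/+ PBS replicates 1 and 2, the shortest Mr1+/+ PD replicate 2, and the split between the subunits changes little.

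Large and small subunit genes kept nearly the same proportion throughout. The summed large subunit level was 1.34 to 1.40 times the small subunit level across the 8 samples, while the total itself differed 1.503-fold between the highest and the lowest sample. The genes moved as a block across samples. Over the 8 samples the median gene had a standard deviation of 0.21 in log2 CPM, which shrank to 0.11 once the median ribosomal protein gene of each sample was subtracted. For comparison, the 4947 other genes with a mean above 50 CPM had a median standard deviation of 0.26.

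Mr1+/+ PBS replicates 1 and 2 gave the highest value of the 8 samples for 49 of the 76 genes (64.5%), against 19.7% of all genes tested. Mr1+/+ PD replicate 2 gave the lowest value for 64 of them (84.2%), against 12.3% of all genes. The plot of each gene relative to its own mean shows these as a mostly red and a mostly blue column. Genes linked to lymphocytes and growth varied across the same samples. Summed B cell markers stood at 4569 and 2888 CPM in the Mr1+/+ PBS samples, 1751 to 1933 under PD fluid in Mr1+/+, 3296 to 3322 in Mr1-/- PBS and 3467 in Mr1-/- PD. The 25 cell cycle genes summed to 1451 and 1022 CPM, 698 to 776, 1069 to 1351 and 1057 CPM in the same order. Adipocyte markers ran the other way, at 14937 to 17670 CPM in Mr1+/+ PBS and 39419 to 69431 in Mr1+/+ PD. Mr1+/+ PD replicates 2 and 3 had B cell sums of 1775 and 1751 CPM and cell cycle sums of 698 and 717 CPM. Their adipocyte sums were 69431 and 68925 CPM, beside ribosomal protein sums of 26731.5 and 35318 CPM. The part of cell makeup in the ribosomal protein levels was not tested.

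**Figure D2:**
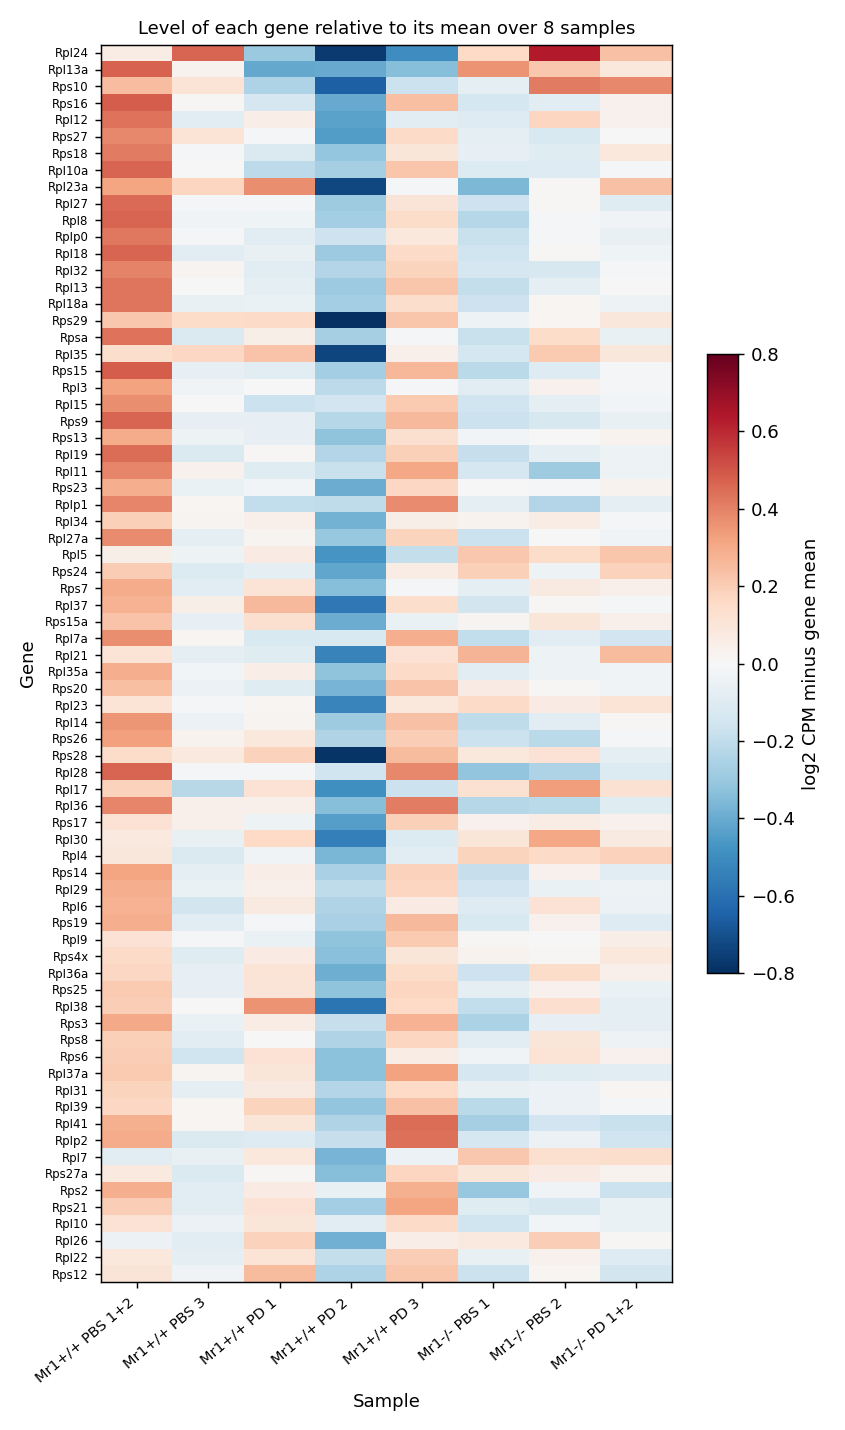
Log2 CPM of 74 of the 76 genes (rows) in each of the 8 samples (columns), minus that gene's mean; red is above the mean, blue below, and the colour scale is capped at its printed ends. Rows are ordered by the PD fluid difference in Mr1+/+; most genes share a red first column (Mr1+/+ PBS replicates 1 and 2) and a blue column for Mr1+/+ PD replicate 2, and Rpl24, Rpl13a and Rps10 at the top depart from the block.

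Sequences around the annotated starts of these genes are shown because the members moved together. RefSeq promoter sequences (GRCm38.p6, the mm10 build) covered 56 of the 76 genes. A run of at least 8 C or T bases that begins with C lay between 30 bases before and 50 bases after the annotated start in 45 of the 56 (80.4%), against 26% of 27025 genes in the same table. In the 300-base windows, from 250 bases before to 50 after the start and on both strands, CCGGAAG, a core of ETS-type sites, was in 41.1% of the members and 9.93% of all genes. The GC box motif GGGCGG was in 60.7% of the members and 38.2% of all genes. AAGATGGC, a core of YY1-type sites, was in 8.93% and 3.19%. The core promoter motif TATAAA was in 10.7% of the members and 15.7% of all genes. Such matches describe the sequence and are not shown to be used. The 30-base stretches below are from the gene's own strand, 5′ to 3′, with the pyrimidine run in capitals, for genes whose values are given in the following paragraphs.
Rplp2 (stalk; chr7:141447637-141447666, plus strand): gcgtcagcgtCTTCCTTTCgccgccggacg
Rps6 (kinase target; chr4:86857349-86857378, minus strand): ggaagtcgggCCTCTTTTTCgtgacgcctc
Rpl5 (5S rRNA partner; chr5:107900498-107900527, plus strand): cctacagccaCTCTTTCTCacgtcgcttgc
Rpl11 (5S rRNA partner; chr4:136053360-136053389, minus strand): ggccggaagtCTCCCTCTCTCTTCCTgttc
Rpl4 (exit tunnel; chr9:64173403-64173432, plus strand): aggagcgtggCCTTCTCCTCTCCCCgtcat
Rpl28 (lowest in Mr1-/- under PBS; chr7:4792953-4792982, plus strand): cctctcgtgtCTCTCTTTCCgtctccggcc
Rpl13a (smallest p under PD fluid; chr7:45128724-45128753, minus strand): tgcgacaagaCCTCCTCCTTTCCCaggcgg
Rps10 (highest in Mr1-/- under PD fluid among the members with over 5 CPM; chr17:27635228-27635257, minus strand): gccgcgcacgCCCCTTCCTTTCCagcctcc
Relative to the annotated start, these runs began at -4 in Rplp2, -1 in Rps6, -20 in Rpl5 and 14 in Rpl11. They began at 26 in Rpl4, -2 in Rpl28, 2 in Rpl13a and -3 in Rps10. Each is the longest run in the window and is not shown to be the first bases of the mRNA. The run is shared by genes that followed the block, such as Rps6, and by genes that departed from it, such as Rpl13a and Rps10. Rplp0 and Rpsa, which are among the most abundant members, had no such run in this window around their annotated starts.

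PD fluid in Mr1+/+ mice changed none of the 76 ribosomal protein genes at an adjusted p under 0.05 (edgeR quasi-likelihood test, Benjamini-Hochberg over all genes), in a comparison where 14.9% of all genes tested were called, 8.49% higher and 6.37% lower. At an unadjusted p under 0.05, edgeR gave 1 member, Rpl13a, against 34.1% of all genes. DESeq2 also called 0 members and 24.6% of all genes. Most members were nonetheless slightly lower under PD fluid. The log2 fold change was below 0 for 71 of 76 (93.4%, against 53.8% of all genes), with a median of -0.17 beside -0.06 over all genes, and a range from -0.77 to 0.05. The median was -0.17 in the large and -0.17 in the small subunit. These 71 are not 71 separate observations, since the genes share samples and move together. Without Mr1+/+ PD replicate 2 the median was -0.03, and without Mr1+/+ PBS replicate 3 it was -0.31. The latter fit left Mr1+/+ PBS with 1 sample, the summed replicates 1 and 2.

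The median standard error of the members was 0.19, beside 0.22 over all genes tested and 0.17 for other genes above 50 CPM. The 95% interval of the log2 fold change lay within a 1.5-fold change either way for 29 of the 76, against 2738 of all 15385 genes. For 71 of the 76 it lay within -1 and 1, which leaves out a 2-fold change in either direction, against 7435 of all genes. The exceptions included Rpl24, Rpl13a, Rps10 and Rpl23a. A p above the threshold does not show that a level stayed the same.

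**Figure D3:**
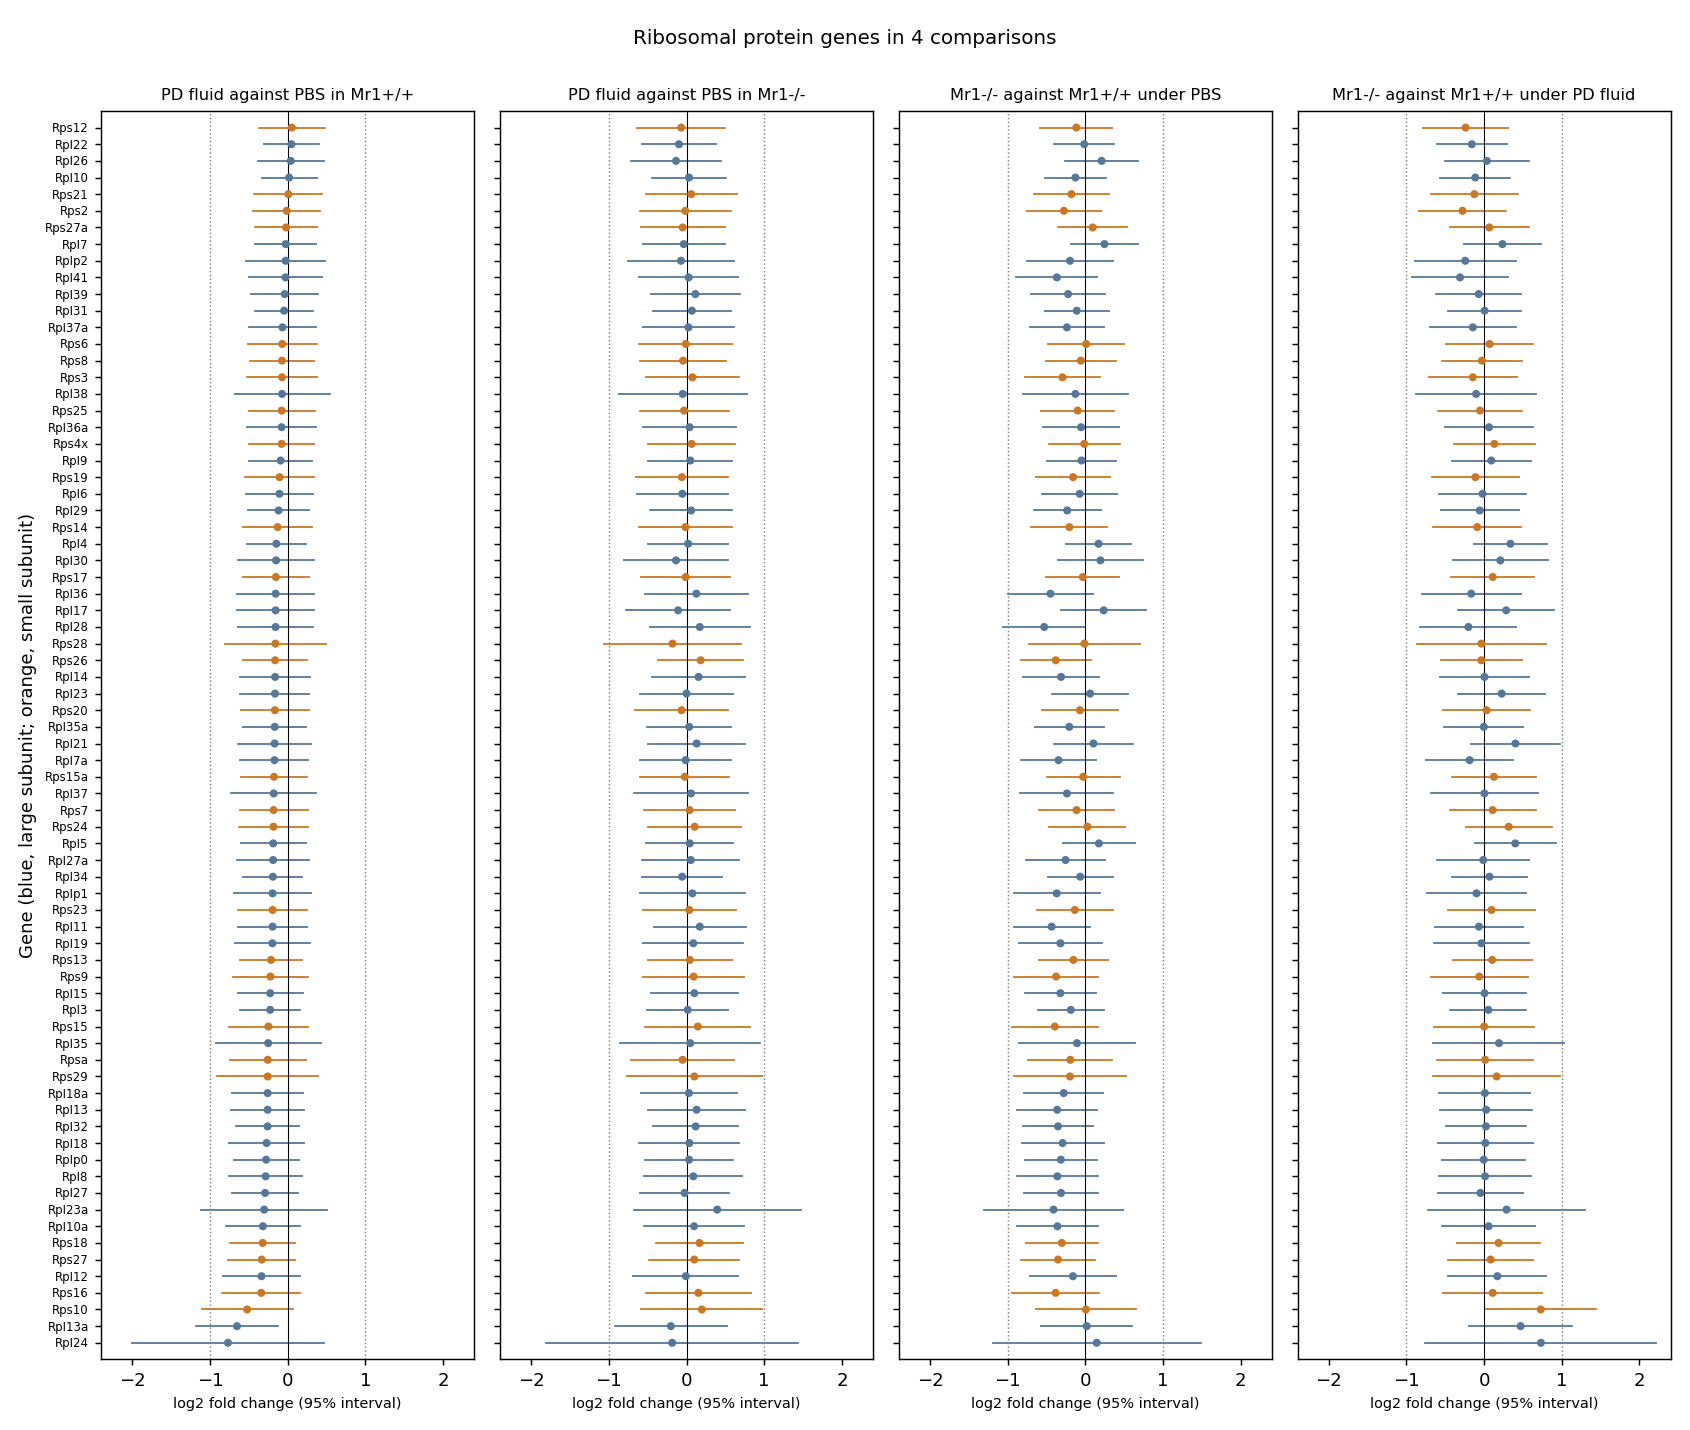
Log2 fold change (x axis) with its 95% interval from the edgeR fit for 74 of the 76 genes (rows; blue, large subunit; orange, small subunit) in 4 comparisons (panels); dotted lines mark 2-fold changes. Nearly all points in the first panel lie slightly left of 0, between -0.77 and 0.05, and the widest intervals belong to Rpl24, Rpl23a and other genes with few counts.

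The proteins of the stalk, which recruits elongation factors to the large subunit, are encoded by Rplp0, Rplp1 and Rplp2. Rplp0 stood at 2338 and 1734 CPM in Mr1+/+ PBS, 1639, 1552 and 1845 in Mr1+/+ PD, 1542 and 1732 in Mr1-/- PBS and 1675 in Mr1-/- PD. All groups but the first lay between 1542 and 1845, and Mr1+/+ PBS replicate 3 fell within that span. Its log2 fold change under PD fluid in Mr1+/+ was -0.28 (SE 0.18, edgeR adjusted p = 0.314), and -0.48 without Mr1+/+ PBS replicate 3. Rplp1 stood at 419.8 and 324 CPM in Mr1+/+ PBS, 279, 279 and 417 in Mr1+/+ PD, 304 and 273 in Mr1-/- PBS and 304 in Mr1-/- PD. Rplp2 followed the same order of samples within Mr1+/+ PD, with 245, 231 and 357 CPM, beside 323 and 243 in Mr1+/+ PBS, 239.5 and 254 in Mr1-/- PBS and 235 in Mr1-/- PD. Both were higher in Mr1+/+ PD replicate 3 than in the other PD samples, and their PBS and PD values overlapped in Mr1+/+. In Mr1-/- the values of Rplp1 overlapped and those of Rplp2 did not.

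Rpsa, a small subunit protein that is also known as a laminin receptor precursor, had the highest level per kb of mRNA, at 1370 CPM per kb. It stood at 2933 and 2002 CPM in Mr1+/+ PBS, 2240.3, 1806 and 2145 in Mr1+/+ PD, 1917 and 2399.99 in Mr1-/- PBS and 2084 in Mr1-/- PD. Its PBS and PD fluid values overlapped in each genotype. Rps6, which S6 kinase phosphorylates downstream of mTOR, stood at 1176 and 918 CPM in Mr1+/+ PBS, 1110.2, 816 and 1065 in Mr1+/+ PD, 1004 and 1106 in Mr1-/- PBS and 1048 in Mr1-/- PD. Its groups overlapped as well. Rps19, mutated in Diamond-Blackfan anaemia, ran from 181 CPM in Mr1+/+ PD replicate 2 to 265 in Mr1+/+ PBS replicates 1 and 2.

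Rpl5 and Rpl11 join 5S rRNA in a complex that binds Mdm2 when ribosome assembly fails. They did not follow the same order across samples. Rpl11 stood at 389 and 304 CPM in Mr1+/+ PBS, 278, 262 and 368 in Mr1+/+ PD, 270.3 and 243 in Mr1-/- PBS and 289 in Mr1-/- PD. Rpl5 stood at 808 and 760.1 CPM in Mr1+/+ PBS, 818, 563 and 685 in Mr1+/+ PD, 905 and 865 in Mr1-/- PBS and 911 in Mr1-/- PD. Rpl11 was lower in both Mr1-/- PBS samples than in both Mr1+/+ PBS samples, while Rpl5 was higher in every Mr1-/- sample than in every Mr1+/+ sample. Under PD fluid in Mr1+/+, the log2 fold change was -0.20 for Rpl11 and -0.19 for Rpl5. Without Mr1+/+ PD replicate 2 these were -0.09 and -0.04. The lowest values with 1 library left out were -0.37 for Rpl11 (without Mr1+/+ PD replicate 3) and -0.33 for Rpl5 (without Mr1+/+ PD replicate 1).

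Among the other members with separate roles, the steadiest was Rpl10, which sits near the peptidyl transferase centre. Its range over the 8 samples was 0.31 in log2 CPM, the smallest of the 76, from 625 CPM in Mr1-/- PBS replicate 1 to 777 in Mr1+/+ PD replicate 3. Rpl22, known for its part in T cell development, followed with a range of 0.39, from 123 to 161 CPM, and Rpl31 with 0.42. The X-linked Rps4x ran from 711 to 997 CPM, and Rps27a, made as a fusion with ubiquitin, from 184 to 263. Rpl38, known for selective translation of Hox mRNAs, ran from 24.4 to 46.7 CPM. For Rps4x, Rps27a and Rpl38 the lowest sample was again Mr1+/+ PD replicate 2. The smallest protein of the set, encoded by Rpl41, had 303 and 253 CPM in Mr1+/+ PBS and 207 and 225 in Mr1-/- PBS. Under PD fluid it had 267, 212 and 339 CPM in Mr1+/+ and 220 in Mr1-/-, with overlap.

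Rpl24, Rpl13a and Rps10 had the lowest fold changes under PD fluid in Mr1+/+, and Rps16 was also near that end. Rpl13a, a large subunit protein also known to leave the ribosome and silence inflammatory mRNAs, stood at 10.6 and 7.79 CPM in Mr1+/+ PBS and 5.77, 5.77 and 6.03 in Mr1+/+ PD. In Mr1-/- mice it stood at 9.79 and 8.86 CPM under PBS and 8.11 under PD fluid. Every Mr1+/+ PD sample was below every other sample. The log2 fold change was -0.65 (SE 0.23, 95% interval -1.18 to -0.12, edgeR adjusted p = 0.0902), which did not pass the threshold. With the 10 libraries taken as separate samples it did, at -0.72 with an edgeR adjusted p of 0.012. The libraries held 86 to 188 counts of this gene.

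Rps10, a small subunit protein near the mRNA entry site, stood at 9.87 and 8.99 CPM in Mr1+/+ PBS and 7.01, 5.30 and 7.39 in Mr1+/+ PD. It had 7.89 and 11.1 CPM in Mr1-/- PBS and 10.9 in Mr1-/- PD. The PD samples of Mr1+/+ lay below all others, and the log2 fold change was -0.52 (SE 0.26, edgeR adjusted p = 0.186). Rps16, a small subunit protein whose tail reaches the decoding site, stood at 418 and 301 CPM in Mr1+/+ PBS, 273, 226 and 353 in Mr1+/+ PD, 272 and 280.3 in Mr1-/- PBS and 307 in Mr1-/- PD. Here the highest PD sample exceeded the lower PBS sample of Mr1+/+, and the log2 fold change was -0.34 (SE 0.22, edgeR adjusted p = 0.304). Leaving out Mr1+/+ PBS replicate 3 gave -0.56, and leaving out Mr1+/+ PD replicate 2 gave -0.18. With 10 separate libraries Rps10 passed the threshold, at an edgeR adjusted p of 0.0477, and that fit called 3 members lower, against 18.3% of all genes. Rpl24, which bridges the subunits, had 8 to 22 counts per library and a log2 fold change of -0.77 (SE 0.54). Only Rpl13a, Rpl24 and Rps10 had PD samples all below the PBS samples (3 of 76, against 25.6% of all genes), and 0 had them all above (25% of all genes).

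In Mr1-/- mice, PD fluid changed 0 of the 76 genes by edgeR, where 0% of all genes were called. At an unadjusted p under 0.05 edgeR gave 0 members and 231 genes in all (1.5%), and DESeq2 called 0 members and 3 genes in all (0.0195%). The median log2 fold change was 0.04 beside -0.01 over all genes, with a range from -0.20 for Rpl13a to 0.40 for Rpl23a, a protein at the tunnel exit that binds the signal recognition particle. Rpl23a stood at 4.08 and 5.28 CPM under PBS and 6.16 under PD fluid, with a standard error of 0.47 on the log2 scale. Without Mr1-/- PBS replicate 1 the median turned to -0.02, Rpl13a was -0.13 and Rpl23a 0.22. Without Mr1-/- PBS replicate 2, Rpl23a was 0.59. Each of these fits set 1 PBS sample against 1 PD sample. The 95% interval lay within a 2-fold change for 73 members and within a 1.5-fold change for 9. The single Mr1-/- PD sample lay above both PBS samples for 30 members (39.5%, against 28.7% of all genes) and below both for 9 (11.8%, against 27.9%). The fit assumes that the lone sample varies like those of the other groups.

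Between the genotypes under PBS, 0 of 76 ribosomal protein genes were called by edgeR, where 0.013% of all genes were. Unadjusted p-values under 0.05 gave 0 members by edgeR and 2 by DESeq2, against 8.64% and 10.8% of all genes. DESeq2 called 0 members and 1.38% of all genes. The median was -0.18 in Mr1-/- relative to Mr1+/+, beside -0.02 over all genes, with 62 of 76 below 0 (51.8% of all genes). Without Mr1+/+ PBS replicate 3, the sample with acinar and intestinal markers, the median was -0.33. Of the 11 mitochondrially encoded genes tested, 0 were below 0 in this comparison and edgeR called 0, with a median log2 fold change of 1.25. Their summed level was 8141 CPM in Mr1+/+ PBS replicates 1 and 2 and 16315 in replicate 3, against 25278 and 30584 in Mr1-/- PBS and 17168 to 18231 in the PD samples. Their part in the ribosomal protein values was not tested. In 28 members both Mr1-/- samples lay below both Mr1+/+ samples (36.8%, against 18.1% of all genes), and in 5 both lay above (6.58%, against 20.5%).

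Rpl28, a large subunit protein, had the lowest value in that comparison. It stood at 482 and 348 CPM in Mr1+/+ PBS and 281 and 295 in Mr1-/- PBS, without overlap. Under PD fluid it stood at 347, 313 and 457 CPM in Mr1+/+ and 324 in Mr1-/-, with overlap. Its log2 fold change under PBS was -0.53 (SE 0.23, edgeR adjusted p = 0.566). Rpl36 (-0.45), Rpl11 (-0.43) and Rpl23a (-0.41) came next on the log2 scale, and Rpl23a was -0.61 without Mr1-/- PBS replicate 2 and -0.24 without Mr1-/- PBS replicate 1. At the other end were Rpl7 (0.25), Rpl17 (0.24), Rpl26 (0.21), Rpl30 (0.20) and Rpl5 (0.17). Of these, Rpl17 was 0.05 without Mr1+/+ PBS replicate 3 and Rpl30 0.08 without Mr1-/- PBS replicate 2.

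Under PD fluid the genotypes differed in 0 of 76 members by edgeR, where 0.013% of all genes were called. The unadjusted count by edgeR was 1 member, Rps10, against 19.1% of all genes, and DESeq2 called 0 members and 6.7% of all genes. The median was 0.01, beside 0 over all genes, and ran from -0.11 without Mr1+/+ PD replicate 2 to 0.13 without Mr1+/+ PD replicate 3. Rps10 was highest with Rpl24, at a log2 fold change of 0.73 (SE 0.31, edgeR adjusted p = 0.253), and passed the threshold with 10 separate libraries (0.73, edgeR adjusted p = 0.0334), where 11.8% of all genes were called higher. The Mr1-/- sample lay above all 3 Mr1+/+ samples for 10 members (36% of all genes) and below all 3 for 2 (33.9% of all genes). Rpl41 (-0.31), Rps2 (-0.28) and Rplp2 (-0.24) had the lowest log2 fold changes. Without Mr1+/+ PD replicate 3 these were -0.12, -0.17 and -0.02, and without Mr1+/+ PD replicate 2 they were -0.48, -0.37 and -0.38.

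Rpl4, Rpl5 and Rpl7 were higher in each of the 3 Mr1-/- samples than in each of the 5 Mr1+/+ samples, whatever the treatment. That count of 3 (3.95%) is below the 6.9% of all genes with the same arrangement, and 0 members had the opposite one (3.78% of all genes). Rpl4, whose protein lines the exit tunnel, stood at 1359 and 1182 CPM in Mr1+/+ PBS, 1253, 992 and 1198 in Mr1+/+ PD, 1443 and 1419 in Mr1-/- PBS and 1452 in Mr1-/- PD. Rpl7, a large subunit protein, stood at 553 and 567 CPM, then 624, 455 and 571, then 683 and 645, and 648 in the same order of groups. The gaps were small next to the spread within Mr1+/+: for Rpl5 the genotype difference was 0.17 under PBS (SE 0.20, edgeR adjusted p = 0.765) and 0.40 under PD fluid (SE 0.23, edgeR adjusted p = 0.370) on the log2 scale, the second being 0.26 without Mr1+/+ PD replicate 2.

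The test of whether PD fluid acted differently in the genotypes called 0 of 76 members by edgeR, where 0% of all genes were called. At an unadjusted p under 0.05 the counts by edgeR were 0 members and 2037 genes in all (13.2%), and DESeq2 called 0 members and 472 genes in all (3.07%). The median difference of log2 fold changes was 0.21 beside 0.01 over all genes, with 8 of 76 below 0 (49.2% of all genes). Without Mr1+/+ PD replicate 2 it was 0.08, and without Mr1+/+ PBS replicate 3 it was 0.34. Rps10 (0.72, SE 0.42) and Rpl23a (0.70, SE 0.59) had the highest values and Rpl26 (-0.17, SE 0.31) the lowest. Leaving out 1 library, Rpl23a ran from 0.45 (without Mr1+/+ PD replicate 2) to 0.97 (without Mr1+/+ PD replicate 1), and Rpl26 from -0.33 to -0.05 without the same libraries. Rps10 ran from 0.50 without Mr1-/- PBS replicate 1 to 0.99 without Mr1-/- PBS replicate 2. This contrast is the least precise: the 95% interval lay within a 2-fold difference for 41 members and within a 1.5-fold one for 0. It shares its samples with the comparisons above, so its median is not separate evidence. All 11 mitochondrially encoded genes tested were below 0 here, with a median of -1.32, and their part was not tested.

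Levels differed far more between members than between groups. Scaled by mRNA length, and taking the mean over the 8 samples, the most abundant were Rpsa (1370 CPM per kb), Rplp0 (1294), Rpl8 (1284), Rps15 (1187) and Rps6 (1174). The least abundant were Rpl24 (1.41 CPM per kb), Rpl13a (7.49), Rpl23a (9.60), Rps10 (9.64), Rpl35 (11.5) and Rpl30 (50.4). Among the 76 genes, 13 have exons that overlap an exon of another gene in GENCODE M21, and all 6 of the least abundant are among the 13.

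Rpl24 (chromosome 16, 55966275 to 55971435, plus strand) overlaps Gm28037 on its own strand. Rpl13a (chromosome 7, 45125558 to 45128761, minus strand) overlaps the protein-coding Gm45713 on its own strand, which is listed at 0 counts in all 10 libraries. Rps10 (chromosome 17, 27630418 to 27636669, minus strand) overlaps the readthrough gene RPS10-NUDT3 on its own strand and Gm15420 on the other. Rpl23a overlaps Tlcd1, Rpl35 overlaps Arpc5l and Wdr38, and Rpl30 overlaps D730044K07Rik, all on the opposite strand. Reads in such overlaps may be left out or split when genes are counted, and the library protocol names no step that marks strand. The counts of these 6 genes are therefore uncertain as mRNA levels, and the part of such overlaps in the differences of Rpl13a, Rps10 and Rpl24 was not tested. The same limit holds for the other members with exon overlaps. Among them are Rpl5, which overlaps Fam69a, and Rpl28, which overlaps Ube2s, each on the opposite strand.

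Ribosomal protein genes also have many processed pseudogenes. Of the 50-base words of each member's mRNA, a median of 56.1% also occurred in transcripts of other genes. At least 1 word was shared by 75 of the 76 genes, and 46 shared 50% or more. Rps27 shared 98.65% of its words with Rps27rt, which had 325 to 733 counts per library, so reads of the pair are hard to assign. The level did not fall steadily with sharing: the median was 473 CPM per kb for the 5 genes below 10%, 322 for the 25 from 10% to 50%, 459 for the 40 from 50% to 90% and 367 for the 6 at 90% or above. Across the 76 genes, Spearman's rho between level per kb and shared words was 0.09, as a description of genes that are not independent. Rps15a and Rps20 have long transcript models of 5130 and 3706 bases, which lowers their level per kb.

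**Figure D4:**
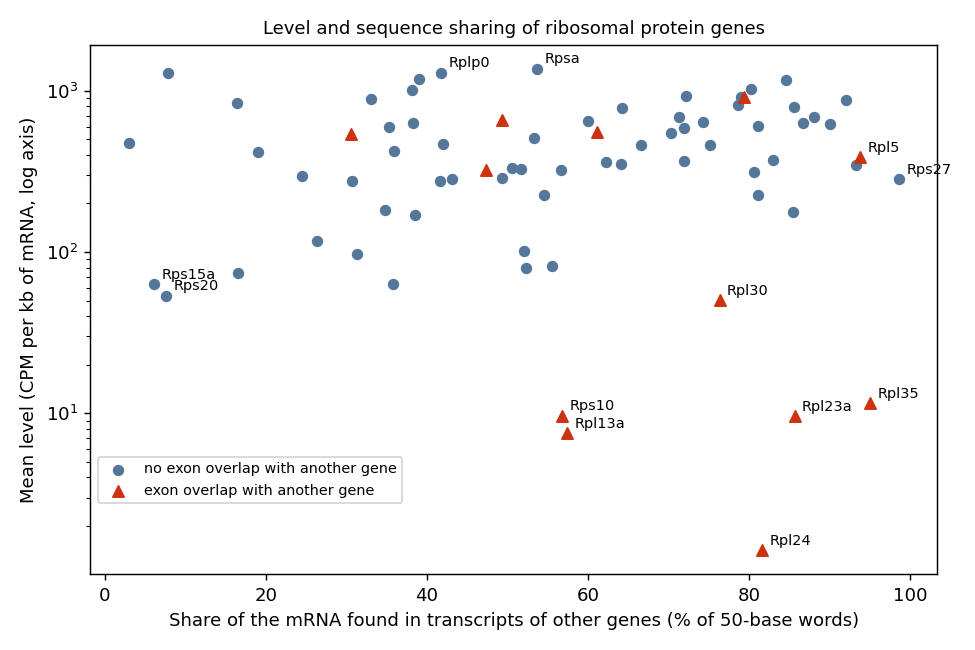
Mean level in CPM per kb of mRNA over the 8 samples (y axis, log scale) against the percentage of each gene's 50-base words found in transcripts of other genes (x axis); each point is 1 of 74 of the 76 genes, and red triangles mark the 12 drawn genes whose exons overlap another gene. The 6 lowest points are all triangles, from Rpl24 at 1.41 to Rpl30 at 50.4 CPM per kb, and they lie at 50% sharing or more.

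Genes around the ribosome gave a wider picture of PD fluid in Mr1+/+ mice. Of 9 tested ribosomal protein genes and paralogs outside the naming rule, edgeR called 0, where 14.9% of all genes were called, and their log2 fold changes had a median of -0.23. They include Fau, which encodes a small subunit protein fused to a ubiquitin-like one (410.2 and 311 CPM under PBS; 318, 252 and 347 under PD fluid). Rps27l, a paralog of Rps27, had the smallest p of that list, with a log2 fold change of 0.56 (edgeR adjusted p = 0.117). The elongation factors and other genes with terminal oligopyrimidine tracts (0 of 19 called, median -0.09) and the initiation factors (0 of 23, median 0.05) had medians of log2 fold change beside -0.06 over all genes, 14.9% of which were called. Hnrnpa1 (-0.54, edgeR adjusted p = 0.094) and Eif1 (0.41, edgeR adjusted p = 0.142) came closest in those 2 lists.

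Ribosome assembly genes did include calls, but these and the calls for regulators and mitochondrial ribosomal proteins rest on the libraries used: without Mr1+/+ PD replicate 3 edgeR called 0 of all genes in this contrast, and without Mr1+/+ PD replicate 2 it called 339, against 2286 with all samples. Of 38 genes for rRNA synthesis and assembly, 5 were lower under PD fluid in Mr1+/+ and 0 higher by edgeR, with a median of -0.27. Mdn1, an ATPase that strips assembly factors from the pre-large subunit, fell from 164 and 149 CPM to 75.4, 86.5 and 49.2 (log2 fold change -1.16, SE 0.26, edgeR adjusted p = 0.0268). Rrp12 fell from 46.3 and 38.3 CPM to 25.9, 28.8 and 26.7, and Heatr1, needed for rRNA transcription and early processing, from 124 and 89.8 CPM to 66.2, 75.8 and 54.4. Bms1 and Tsr1, factors of small subunit assembly, fell by 0.49 and 0.59 on the log2 scale. The share of that list called, 5 of 38, is to be read beside the 6.37% of all genes called lower.

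Among 19 regulators of ribosomal protein mRNAs and ribosome stress, edgeR called 1 higher and 2 lower, a share near the 14.9% of all genes called (8.49% higher, 6.37% lower) and so no result about regulators as a list. Eif4ebp1, which encodes the mTOR-controlled repressor 4E-BP1 of cap-dependent translation, rose from 49.4 and 49.0 CPM to 106, 135 and 163 (log2 fold change 1.45, SE 0.19, edgeR adjusted p = 0.0124). In Mr1-/- mice it stood at 56.2 and 50.9 CPM under PBS and 52.4 under PD fluid, and the difference between the genotypes in its response did not pass the threshold (-1.48, SE 0.32, edgeR adjusted p = 0.266). Tsc1, an inhibitor of mTOR signalling, fell by 0.54 and Zbed4 by 0.73 on the log2 scale.

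The proteins of the mitochondrial ribosome are encoded by a separate set of nuclear genes, and whether these differed from the cytosolic set was not tested. Of 77 tested, edgeR called 1 higher and 0 lower under PD fluid in Mr1+/+, where 8.49% of all genes were called higher and 6.37% lower. Their median log2 fold change was 0.25, beside -0.06 over all genes, and 10 of 77 were below 0 (53.8% of all genes). The one called, Mrpl17, rose from 29.99 and 29.3 CPM to 40.2, 45.2 and 57.2 (log2 fold change 0.68, SE 0.19, edgeR adjusted p = 0.0471). The 11 tested protein-coding genes of the mitochondrial genome had a median of 0.55, beside -0.06 over all genes, with 0 called where 14.9% of all genes were. These 7 lists gave 0 calls by edgeR in each of the other 4 contrasts. It called at most 0.013% of all genes there, so these counts of 0 are no result about the lists. Rpl3l, a muscle paralog of Rpl3, and the germline paralogs Rpl10l and Rpl39l were not tested, with 20, 0 and 10 counts in all libraries together.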

How the data were processed

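The authors deposited whole-number read counts per gene symbol, not normalized, for 10 libraries. The labels' protocols describe poly-A selection and random-primed cDNA and name neither a strand-marking step nor molecular identifiers. Per the submitters' processing notes the genome is mm10; for the aligner, counter and annotation the entry is not given in the sources used here. Rows that shared a symbol (21899 rows in all) and near-identical libraries were summed, the latter to 8 samples. After edgeR's filterByExpr and TMM scaling, 4 group means were fitted with edgeR 4.0.16 under R 4.3.3 (robust quasi-likelihood, 4 residual degrees of freedom) and 5 contrasts were tested. A gene was called at a Benjamini-Hochberg adjusted p under 0.05 over all genes tested. Standard errors and 95% intervals were derived from each F value and its degrees of freedom. CPM used TMM library sizes. On the log2 scale a prior count of 2 was used for Mr1, the correlations between libraries and the spread between samples. The standard deviations, ranges and plotted log2 CPM of the members used no prior count. Lengths and overlaps came from 1 protein-coding transcript per gene in GENCODE M21, which held all 76 genes. It was chosen by principal rank, then by the best support level, then as the shortest. The fit was tested on simulated data. DESeq2 1.42.0, other scalings and filters, 10 separate libraries, a replicate block and leaving out each library were alternatives. Genes were named for a separate known role, for the 5 highest or 5 lowest fold changes of a contrast, as extremes of level or range, or as up to 4 called genes (or the 2 smallest p-values) of a list. Outside that rule, Tsr1, Rps27, Rps15a, Rps20, Rps15, Rpl35, Rpl30 and Fau were picked with their values in view. A few members are not reported here and not drawn in the plots by gene, but stay in every count, sum and median. The members and lists were chosen with earlier results of these data known.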

Additional observations from a re-analysis of the deposited data

How the results depend on the processing

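Of 178 counts of called members over 18 alternatives, 175 were 0. With 10 separate libraries, edgeR called 3 members lower under PD fluid in Mr1+/+ (Rpl13a and Rps10 among them; 18.3% of all genes lower) and 1 member, Rps10, higher in Mr1-/- under PD fluid (11.8% of all genes higher). Those fits count each near-identical pair as 2 samples. With the replicate block, 1 member (Rpl13a, -0.70, edgeR adjusted p = 0.0201) was called lower under PD fluid in Mr1+/+. The labels give no pairing by replicate number. Same-number correlations for Mr1+/+ PBS and PD were 0.092, -0.082 and 0.071. Because replicates 1 and 2 of Mr1+/+ PBS are near-identical, these values cannot decide whether the numbers pair samples. The 89 medians moved by less than the spread between samples, 0.21 in log2 CPM. That limit is near or above the size of the medians, so it does not show that they were stable. Leaving out 1 library at a time, the median for PD fluid ran from -0.31 to -0.03 in Mr1+/+ and from -0.02 (without Mr1-/- PBS replicate 1) to 0.08 (without Mr1-/- PBS replicate 2) in Mr1-/-. For genotype it ran from -0.33 to -0.13 under PBS and from -0.11 to 0.13 under PD fluid, and for the interaction from 0.08 to 0.34. Fits without Mr1+/+ PBS replicate 3, or without either Mr1-/- PBS replicate, leave that group with 1 sample. Leaving out 1 library of a near-identical pair keeps the other in its place. The number of all genes called for PD fluid in Mr1+/+ was 0 without Mr1+/+ PD replicate 3 and 339 without Mr1+/+ PD replicate 2. Of 980 alternatives for 55 named values, 945 kept direction and side of the threshold, 5 passed it and 30 turned sign, and the cause was not tested. With 10 libraries, Rps21 was -0.034 and Rpl10 -0.0067 under PD fluid in Mr1+/+, and with the replicate block -0.044 and -0.0071. The interaction values were 0.018 for Rplp2 and 0.00015 for Rps27a with 10 libraries, and 0.036 and 0.010 with the replicate block. Leaving out 1 library, values for PD fluid in Mr1+/+ ran from -0.13 to 0.17 for Rps21, -0.061 to 0.10 for Rpl10, -0.079 to 0.21 for Rpl26, -0.039 to 0.17 for Rpl22 and -0.032 to 0.22 for Rps12. In Mr1-/- they ran from -0.71 to 0.22 for Rpl24 and -0.026 to 0.47 for Rps10, and for the interaction from -0.17 to 0.20 for Rplp2 and -0.16 to 0.11 for Rps27a. Depth limits Rpl24 most, at 8 to 22 counts per library.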
